A study of Mus musculus with 8 samples.

Results

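The genes described here are the core of the prolactin signalling pathway inside the cell: the kinases Jak1 and Jak2, the transcription factors Stat3, Stat5a, Stat5b and Stat6, and the feedback inhibitors Socs1, Socs2, Socs3 and Cish. They were chosen by name, and all 10 were found among the 55933 genes of the expression table. Their mRNA levels were compared between mammary epithelial cells of 4 control mice and 4 Bmpr1a cKO mice at pregnancy day 14.5, to see whether the pathway that drives alveolar differentiation is transcribed at another level when the BMP receptor BMPR1a is deleted from the myoepithelial layer. The cKO mice were C57BL/6 females of genotype K14-rtTA;teto-Cre;Bmpr1a fl/fl that drank doxycycline until their glands were collected, so Cre was driven by the keratin 14 promoter, which marks the myoepithelial layer. The controls were littermates labelled WT. Their alleles and treatment are not given in the sources used here. Each library came from 1 mouse and from an enzymatically digested, unsorted epithelial preparation, so luminal, myoepithelial and remaining stromal cells contributed RNA together.

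Prolactin acts on the alveolar cell through its receptor PRLR, which carries JAK2 on its inner side. Hormone binding activates JAK2, JAK2 phosphorylates STAT5A and STAT5B, and the phosphorylated STAT5 dimers enter the nucleus and switch on milk protein genes. Among the genes switched on are those of the CISH and SOCS proteins, which bind the receptor or the kinase and close the loop as brakes. STAT5A is the main STAT of lobuloalveolar development in the pregnant gland, STAT6 serves interleukin 4 and interleukin 13 in the luminal lineage, and STAT3 is activated by leukemia inhibitory factor when the gland involutes. Much of this activation is by phosphorylation, which mRNA levels do not measure.

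STAT dimers bind a palindrome, TTCNNNGAA, known as the GAS motif. It was searched on both strands in the RefSeq promoter windows of the mouse build GRCm38.p6, which run from 250 bases before to 50 bases after each annotated start, and 9 of the 10 genes had a window there. Cish and Socs3 held the motif, as did 8.3% of all 32851 windows. The stretches that carry it are shown because these feedback genes are read against STAT targets later, next to those of the milk protein gene Csn2 and of the receptor gene Prlr. Capitals mark the GAS motif and, in Csn2, also the wider form with 4 free bases between TTC and GAA that STAT6 prefers, which none of the 9 genes held and which 6.95% of all windows held. Each sequence is written 5′ to 3′ on the strand of its gene.
Cish, chr9:107296655-107296684, plus strand, at the RefSeq start: agttTTCCTGGAAagTTCTTGGAAatctgt
Socs3, chr11:117969481-117969550, minus strand: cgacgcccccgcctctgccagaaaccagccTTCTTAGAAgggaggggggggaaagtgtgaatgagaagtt
Csn2, chr5:87699496-87699585, minus strand: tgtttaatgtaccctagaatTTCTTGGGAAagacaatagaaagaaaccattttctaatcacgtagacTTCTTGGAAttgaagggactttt
Prlr, chr15:10223766-10223835, plus strand: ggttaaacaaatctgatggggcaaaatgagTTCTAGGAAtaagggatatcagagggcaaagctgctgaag
In Cish the first motif begins at the RefSeq start itself and the other begins at base 12 of the transcript, whereas in Socs3 the motif begins 154 bases before the start. A match describes letters in a window and does not show that a STAT protein was bound there.

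Socs1 is shown for another reason: it was the gene of the 10 with the largest difference between the groups, and its window holds no GAS motif. It holds 2 overlapping matches to a pair of GAAA repeats 2 bases apart, the form read by interferon regulatory factors, marked in capitals and beginning 83 and 77 bases before the start. This motif was searched after the sequence had been seen, and it or its reverse complement lies in 3.44% of all windows.
Socs1, chr16:10785567-10785666, minus strand: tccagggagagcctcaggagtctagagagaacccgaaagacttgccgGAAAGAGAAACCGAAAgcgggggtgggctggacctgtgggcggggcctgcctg

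Between 16123108 and 19896988 reads per library lay on genes. Bmpr1a itself, the targeted gene, was not lower in the libraries labelled cKO, at 11.2 ± 1.01 FPKM against 10.1 ± 1.28 in control (n = 4 per group, SD; two-sided exact permutation p = 0.257, where 4 against 4 allow no p under 0.0286). The study reports less BMPR1a protein in cKO mice, by western blot of epithelial cells isolated at the same day of pregnancy. It also found BMPR1a in luminal cells, which the deletion did not target. In an unsorted preparation, fewer cells of a type and less RNA per cell cannot be told apart, and the directions below rest on the labels. All 7 luminal and all 8 myoepithelial markers exceeded 1 FPKM in at least 1 library, and their summed levels overlapped between the groups. Of the 8 myoepithelial markers 3 had a lower and 5 a higher mean in cKO. Single myoepithelial markers differed more: Krt14 was at 753 ± 93.7 FPKM in control and 577 ± 88.9 in cKO (limma, adjusted p = 0.209), and Oxtr at 2.62 ± 0.329 and 5.65 ± 1.71 FPKM with separate groups (adjusted p = 0.0644). Other fits called them, Krt14 with the block of replicate sets (0.0187) and Oxtr by limma-voom (0.0377), and limma-voom with the replicate block called both (0.00972 and 0.00824). Krt17, at 460 FPKM in control and 361 FPKM in cKO (limma, adjusted p = 0.320), was called by these 2 block fits as well (0.0498 and 0.0155). Of all genes, the block of replicate sets called 2.92%, limma-voom 1.66% and limma-voom with the replicate block 4.49%.

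All 10 genes were expressed, and by limma on FPKM none differed between the groups at an adjusted p under 0.05, which 0.892% of all genes tested passed. Socs1 passed it in 2 alternative fits, with a block of replicate sets and by limma-voom with a replicate block (adjusted p = 0.0366 and 0.0385). The 10 mean levels in control spanned 11.4-fold, from Stat3 at 106.6 FPKM to Socs2. FPKM are fragments per kilobase of transcript, scaled to library depth, and so allow levels of different genes to be compared. In control libraries the order was Stat3, Socs3, then Jak1, Jak2 and Stat6, then Stat5a, Cish and Stat5b, and last Socs1 and Socs2. Jak1 and Jak2, Jak2 and Stat6, and Socs1 and Socs2 were neighbours whose ranges over the 4 libraries overlapped, whereas every other pair of neighbours was separate. In cKO libraries the order was the same except that Stat5b stood above Cish, with overlapping ranges, and Socs1 came last below Socs2, again with overlapping ranges. Stat3 and Socs3 also overlapped there.

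**Figure D1:**
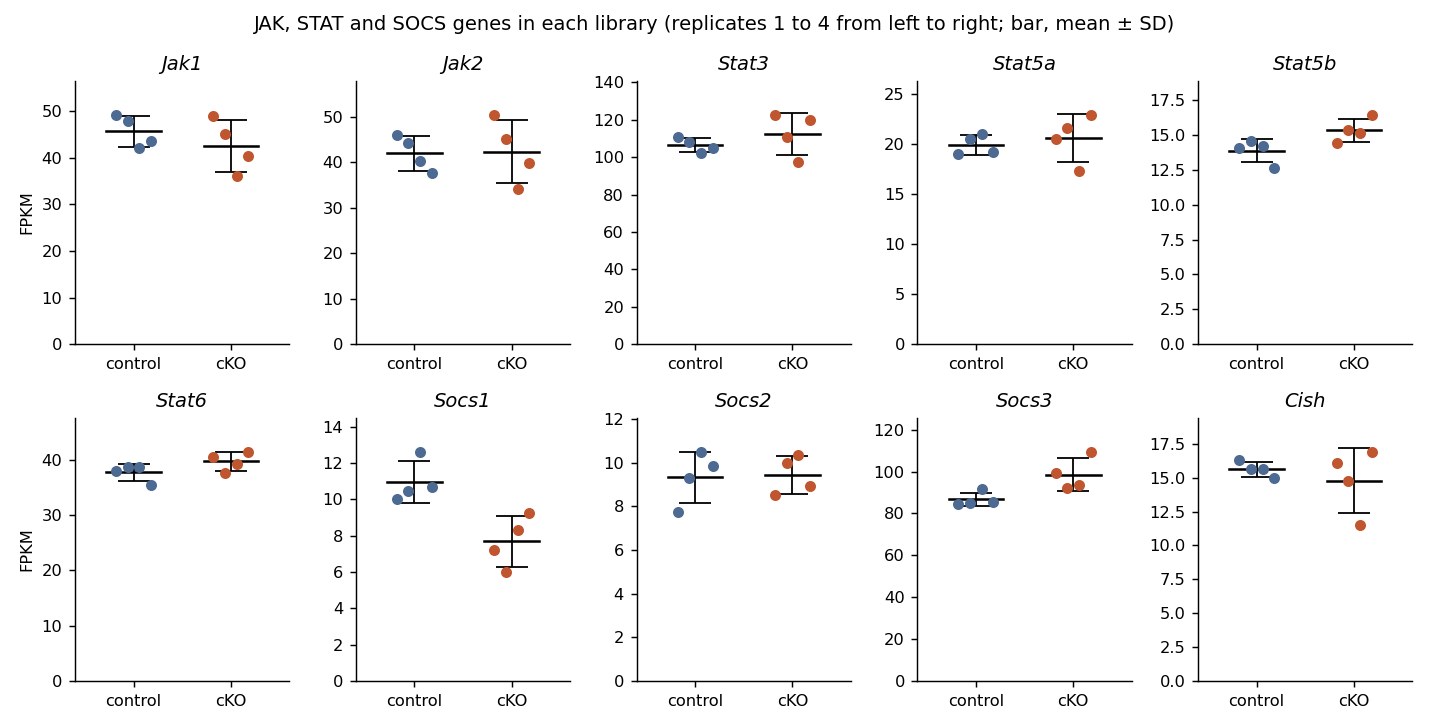
FPKM of the 10 JAK, STAT and SOCS genes (vertical axes, each from 0) in 4 control and 4 cKO libraries; points are libraries and bars are mean ± SD. Socs1 and Socs3 are the genes whose control and cKO points do not overlap, Socs1 with all cKO points below and Socs3 with all cKO points above.

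Prlr, the receptor at the head of the pathway, was found at 1.94, 2.17, 1.75 and 1.61 FPKM in control and at 2.31, 2.19, 1.79 and 1.78 FPKM in cKO. The groups overlapped, and the log2 difference of 0.07 was within the spread between mice (limma, adjusted p = 0.756). Prolactin itself (Prl), a hormone made in the pituitary, was listed at 0 in every library.

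The kinases were close to each other in level and did not differ between the groups beyond the replicate error. Jak2, the kinase attached to PRLR (chr19:29251828-29313080, ENSMUSG00000024789), was present at 46.1, 44.3, 40.2 and 37.6 FPKM in control. Its levels in cKO were 50.4, 45.2, 34.1 and 39.96 FPKM. The cKO libraries held both the highest and the lowest value of the 8, and the log2 fold change was 0.00, with a 95% interval from -0.27 to 0.27 (limma, adjusted p = 0.996).

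Jak1, which serves interferon, interleukin and leukemia inhibitory factor receptors (chr4:101152367-101265282, ENSMUSG00000028530), was present at 49.1, 47.8, 42.1 and 43.6 FPKM in control. In cKO it was at 48.9, 45.04, 36.1 and 40.4 FPKM. The groups overlapped, and the log2 fold change was -0.10 with a 95% interval from -0.33 to 0.12 (limma, adjusted p = 0.657). For both kinases the libraries numbered 1 and 2 lay above those numbered 3 and 4 in control and in cKO alike.

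Stat5a, Stat5b and Stat3 lie side by side on chromosome 11, in a stretch of 158810 bases (chr11:100780731-100939540). Stat5b (chr11:100780731-100850724, ENSMUSG00000020919) and Stat5a (chr11:100859351-100885169, ENSMUSG00000004043) are 8626 bases apart, and Stat5a overlaps Stat3 (chr11:100885098-100939540, ENSMUSG00000004040) by 72 exonic bases on the other strand. Strand-specific counting is not stated, so reads from these 72 bases could belong to either gene. Stat5a and Stat5b are near copies in part of their length. Of the 50-base windows of the longest Stat5a transcript, 10.8% also occur in Stat5b, and of those of Stat5b 11.8% occur in Stat5a. Reads from these windows could be split between them.

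Stat5a was measured at 19.0, 20.5, 21.0 and 19.1 FPKM in control and at 20.5, 21.6, 17.3 and 22.8 FPKM in cKO. Among the cKO libraries it was lowest in replicate 3 and highest in replicate 4, and these 2 libraries lay on either side of the whole control range. The log2 fold change of 0.04, with a 95% interval from -0.16 to 0.24, did not pass the test (limma, adjusted p = 0.869).

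Stat5b, the closest relative, which also serves growth hormone, was measured at 14.1, 14.5, 14.2 and 12.7 FPKM in control and at 14.5, 15.3, 15.1 and 16.4 FPKM in cKO. Of the 4 cKO libraries 3 lay above every control library, and the fourth overlapped with control. The mean was 15.3 ± 0.809 FPKM against 13.9 ± 0.833 (SD, n = 4 each). The log2 fold change was 0.14 with a 95% interval from -0.01 to 0.28 (limma, adjusted p = 0.343).

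Within the pair, Stat5b made up 41.1% ± 1.20 of the summed Stat5a and Stat5b FPKM in control and 42.8% ± 2.55 in cKO (n = 4 per group, SD; two-sided exact permutation p = 0.257). The difference of 1.79 percentage points rested in most part on 1 library. In cKO replicate 3 the share was 46.7%, whereas it was 41.4% to 41.8% in the other cKO libraries and 39.8% to 42.5% in control. Without that library the difference was 0.51 percentage points.

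Stat3, the STAT of involution and of interleukin 6 type cytokines, had the highest level of the 10 genes. It was at 110.8, 108.3, 102.4 and 105.1 FPKM in control and at 122.4, 110.6, 97.7 and 119.9 FPKM in cKO. The cKO libraries were spread about 3 times as widely as the control libraries, with an SD of 11.2 against 3.65 FPKM, and enclosed them (log2 fold change 0.07, limma, adjusted p = 0.709).

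Stat6, which carries interleukin 4 and interleukin 13 signals (chr10:127642986-127660957, ENSMUSG00000002147), was at 37.9, 38.7, 38.7 and 35.4 FPKM in control. In cKO it was at 40.5, 37.6, 39.1 and 41.4 FPKM. The groups overlapped, and the log2 fold change was 0.07 (limma, adjusted p = 0.596). It overlaps by 40 exonic bases with Nab2 on the other strand, a gene with 655 reads or fewer per library where Stat6 had at least 2731.

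Of the 4 inhibitors 1 was lower in every cKO library than in any control library, against 4.6% of all genes, 1 was higher, against 6.1%, and the other two overlapped. None passed the adjusted threshold. SOCS1 binds the activation loop of JAK kinases and blocks them. Socs1 (chr16:10782240-10785536, ENSMUSG00000038037) was at 10.001, 10.5, 12.6 and 10.7 FPKM in control and at 7.23, 5.98, 8.34 and 9.24 FPKM in cKO. The highest cKO library lay below the lowest control library. The mean was 7.70 ± 1.41 FPKM against 10.9 ± 1.146 (SD, n = 4 each), a relative difference of -29.6%. The log2 fold change was -0.47 with an SE of 0.12 and a 95% interval from -0.74 to -0.19.

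This difference had an unadjusted p of 0.00425 and did not pass the adjustment over all 15143 genes tested (limma, adjusted p = 0.116). It lay on 287 to 614 reads per library, the fewest of the 10 genes. The log2 difference was -0.57 in the libraries numbered 1 and 2 and -0.37 in those numbered 3 and 4. Since the groups did not overlap, the direction had to be the same in both sets. With a term for these sets of libraries in the model the adjusted p was 0.0366. The log2 fold change stayed between -0.55 and -0.37 as each library was left out in turn, with an unadjusted p under 0.05 in 8 of 8 cases and an adjusted p from 0.116 to 0.222.

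Socs1 is also expressed by lymphocytes, so their markers are given beside it. All 8 lymphocyte markers had a lower mean in cKO, and Cd3e and Ms4a1 stayed below 1 FPKM in every library. Their summed level was 17.3, 7.15, 36.004 and 5.30 FPKM in control and from 3.05 to 5.43 FPKM in cKO. The sum was highest in control replicate 3, where Socs1 was highest too, and it lay above the cKO range in control replicates 1 and 2 as well and within it in control replicate 4. Without control replicates 1 and 3, which had the highest sums, the log2 fold change of Socs1 was -0.43 with 2 control libraries remaining (limma, adjusted p = 0.426). This fit was added after the values were seen. All 7 macrophage markers also had a lower mean in cKO, with sums of 896 to 1041 FPKM in control and 818 to 986 FPKM in cKO, as had all 6 endothelial markers, with sums of 111 to 129 and 85.2 to 116 FPKM. The part of these cell types in the Socs1 difference was not tested.

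**Figure D2:**
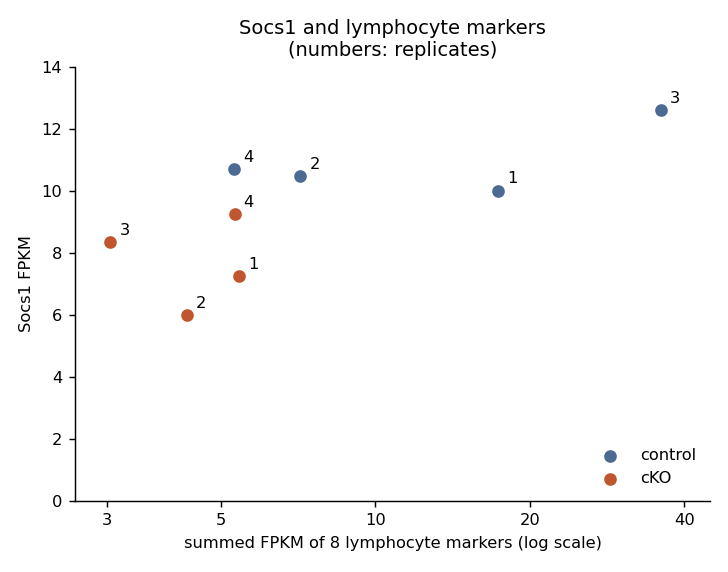
Socs1 FPKM (vertical axis, from 0) against the summed FPKM of 8 lymphocyte markers (horizontal log axis) in each library, numbered by replicate. The control libraries lie between 5.30 and 36.004 FPKM in markers and the cKO libraries between 3.05 and 5.43 FPKM, and all cKO points are below all control points in Socs1.

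SOCS3 docks on the interleukin 6 receptor chain gp130 and restrains STAT3. Socs3 (chr11:117966079-117970047, ENSMUSG00000053113) was at 84.7, 84.9, 91.4 and 85.5 FPKM in control and at 99.2, 91.9, 93.7 and 109.3 FPKM in cKO. The groups did not overlap, but the gap was narrow, from 91.4 in control replicate 3 to 91.9 in cKO replicate 2. The mean was 98.5 ± 7.82 FPKM against 86.7 ± 3.21 (SD, n = 4 each), higher by 13.7%, with a log2 fold change of 0.18 and a 95% interval from 0.02 to 0.34. By limma over all genes its unadjusted p was 0.0324 and its adjusted p 0.254.

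As each library was left out the log2 fold change of Socs3 stayed between 0.13 and 0.21. The unadjusted call was lost when any of control replicates 1, 2 or 4 or cKO replicates 1 or 4 was left out, and it was lost when every library was scaled to the same FPKM sum.

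Cish and Socs2, the classical STAT5 feedback genes, showed no difference beyond the replicate error. Cish (chr9:107296026-107302784, ENSMUSG00000032578), the gene with the pair of GAS motifs at its start, was at 16.3, 15.6, 15.6 and 15.0 FPKM in control. In cKO it was at 16.1, 14.7, 11.5 and 16.9 FPKM. Apart from replicate 3, the cKO libraries lay within or close to the control range. The log2 fold change was -0.09 (limma, adjusted p = 0.735), and without cKO replicate 3 it was 0.02.

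Socs2 (chr10:95385362-95417180, ENSMUSG00000020027), which restrains growth hormone signalling as well, was at 7.75, 9.29, 10.5 and 9.82 FPKM in control. In cKO it was at 8.50, 9.999, 10.3 and 8.91 FPKM, wholly inside the control range. The log2 fold change was 0.02 (limma, adjusted p = 0.950).

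As a set, 0 of the 10 genes passed an adjusted p under 0.05 by limma on FPKM or by limma-voom on recovered reads, against 0.892% and 1.66% of all genes tested. Socs1 and Socs3 passed an unadjusted p under 0.05 by both methods, 2 of 10 against 16.4% and 17% of all genes. Of all genes, 8.85% passed with a higher and 7.53% with a lower level in cKO. The same 2 of 10 did not overlap between the groups, against 10.7% of all genes. These shares are near the background. The median log2 fold change of the 10 genes was 0.03, and the median of its size was 0.081, against 0.111 over all genes tested. Of the cKO libraries, replicate 3 was the lowest for Jak1, Jak2, Stat3, Stat5a and Cish, 5 of 10 genes against 27.8% of all genes, and replicate 4 was the highest for 6 of 10, against 26.7%.

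The other members of the pathway were described from fixed lists, ordered from the outside of the cell inwards. Of 9 cytokine and hormone ligands 5 were expressed well enough to be tested, 0 passed the adjusted threshold by limma or limma-voom and 1 passed an unadjusted p under 0.05, against 7.53% of all genes with a lower level in cKO and 16.4% in either direction. This was Lif, the activator of STAT3 in involution, at 121 ± 16.2 FPKM in control and 91.9 ± 20.3 in cKO, with a log2 fold change of -0.41 and overlapping groups (limma, adjusted p = 0.243). By limma-voom with the replicate block its adjusted p was 0.0266. Il6 was at 105 and 88.2 FPKM (adjusted p = 0.470), and Il4, the cytokine upstream of STAT6, was near 1 FPKM in both groups.

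Of 13 receptor genes tested 0 passed the adjusted threshold by either method without a block, and 3 passed the unadjusted one by limma, all higher in cKO, against 8.85% of all genes in that direction. By limma-voom 2 of the 13 passed the unadjusted threshold, against 17% of all genes. Il6ra, the specific chain of the interleukin 6 receptor, was at 5.11, 4.42, 5.10 and 5.01 FPKM in control and at 7.04, 5.42, 6.52 and 7.57 FPKM in cKO. The groups did not overlap, and the log2 fold change was 0.36 with an SE of 0.096 (limma, adjusted p = 0.117). By limma-voom with the replicate block its adjusted p was 0.0193. Ghr, the growth hormone receptor gene, was at 2.72 and 3.41 FPKM (adjusted p = 0.273), and Ifngr2, a chain of the interferon gamma receptor, was at 35.8 and 39.9 FPKM (adjusted p = 0.302).

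Among the other JAK, STAT and SOCS genes, Stat2, a STAT of the interferon response, was at 29.5 FPKM in control and 25.5 FPKM in cKO (limma, adjusted p = 0.506). Socs5, another member of the inhibitor family, was at 24.2 and 21.4 FPKM (adjusted p = 0.340).

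Of 11 brakes on JAK or STAT outside the SOCS family 1 fell, against 0.304% of all genes in that direction, and limma-voom without a block called the same gene. Sh2b3 encodes LNK, an adaptor that restrains JAK2 in blood and endothelial cells. It was at 12.3, 13.1, 12.2 and 12.5 FPKM in control and at 10.5, 9.04, 8.80 and 9.17 FPKM in cKO. The groups were well apart, and the log2 fold change was -0.38 with an SE of 0.067 (limma, adjusted p = 0.0425). As each library was left out, the adjusted call was kept in 1 of 8 cases, without cKO replicate 1 (adjusted p from 0.0369 to 0.124). The log2 fold change of Sh2b3 stayed between -0.44 and -0.36 over these omissions of 1 library. Its adjusted p was 0.0835 with no filter on low values, 0.0700 after scaling to equal FPKM sums and 0.0693 with the replicate block. With control replicates 2 and 4 only it was 0.289. Sh2b3 shares 99 exonic bases with Atxn2 on the other strand, whose log2 fold change was -0.02 (adjusted p = 0.903). The 8 lymphocyte, 7 macrophage and 6 endothelial markers given above also had lower means in cKO, and the part of these cells in the Sh2b3 difference was not tested. Ptpn1, a phosphatase of JAK2, was at 27.1 and 24.3 FPKM (adjusted p = 0.318), and Cav1, which holds JAK2 inactive at the membrane, was at 63.8 and 68.6 FPKM (adjusted p = 0.612).

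**Figure D3:**
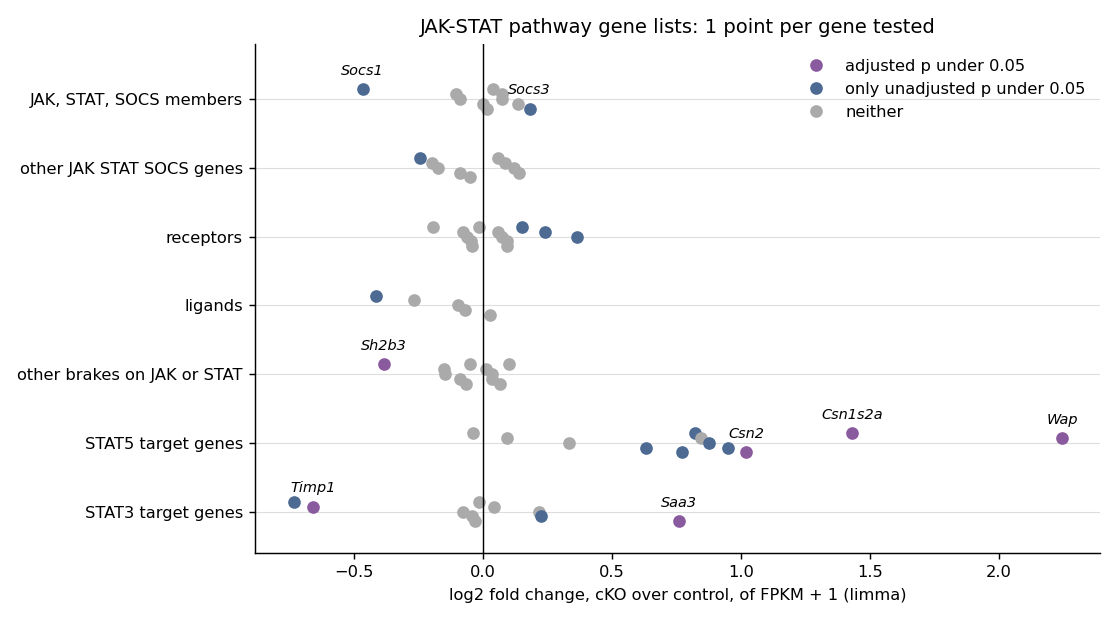
Log2 fold change of FPKM + 1, cKO over control (horizontal axis), of each gene tested in 7 JAK-STAT gene lists; 1 point is 1 gene, coloured by whether it passed the adjusted or only the unadjusted threshold of 0.05. The 10 JAK, STAT and SOCS genes lie between -0.47 and 0.18, whereas the STAT5 target genes reach 2.25.

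Of 12 genes downstream of STAT5 that were tested, 3 rose at an adjusted p under 0.05 by limma, against 0.588% of all genes in that direction, and 8 passed by limma-voom on recovered reads, against 1.66% in either direction. With an unadjusted p 8 of 12 passed, all higher in cKO, against 8.85% of all genes in that direction, and the median log2 fold change of the 12 was 0.83. The other 4, Tnfsf11, Ccnd1, Akt1 and Lalba, passed neither threshold. The study had reported Wap, Csn2 and Lalba as upregulated in these same samples. The list was chosen with earlier results of these data known, so it is not independent evidence of a direction. Csn2, whose sequence is shown above, was at 1455 to 1856 FPKM in control and at 2711 to 4523 FPKM in cKO (log2 fold change 1.02, limma, adjusted p = 0.0461). Csn1s2a and Wap rose by 1.43 and 2.25 on the log2 scale (adjusted p = 0.0377 and 0.0340). As each library was left out, the log2 fold change stayed at 0.87 to 1.12 for Csn2, 1.24 to 1.56 for Csn1s2a and 1.95 to 2.51 for Wap. The adjusted calls of Csn2 and Wap were lost in 8 of 8 cases, with adjusted p from 0.0575 to 0.127 and from 0.0568 to 0.0954. That of Csn1s2a was kept in 1 of 8, without cKO replicate 1, with adjusted p from 0.0456 to 0.0990. With the number of the replicate as a block the adjusted p of Wap was 0.0539.

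Elf5, the transcription factor of alveolar cells that STAT5 and prolactin induce, was at 18.1, 17.8, 24.7 and 24.7 FPKM in control and at 31.9, 33.7, 38.8 and 49.8 FPKM in cKO. The groups were separate, with a log2 fold change of 0.82 and an SE of 0.16 (limma, adjusted p = 0.0591). It passed the adjusted threshold by limma-voom (0.0239), after scaling to equal FPKM sums (0.0305), with the replicate block (0.0357) and with the block of replicate sets (0.00651). It did not pass with any 1 library left out (0.0712 to 0.146), with no filter on low values (0.139) or with control replicates 2 and 4 only (0.314). Tnfsf11, the gene of RANKL, was at 1.29 ± 0.569 and 1.89 ± 0.683 FPKM with overlapping groups (adjusted p = 0.465). Cish and Socs2, which belong to the same class of STAT5 targets, had 95% intervals whose upper bounds on the log2 scale were below the 0.82 of Elf5, as the plot of fold changes with their intervals shows. Whether they differed from Elf5 or the caseins was not tested.

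**Figure D4:**
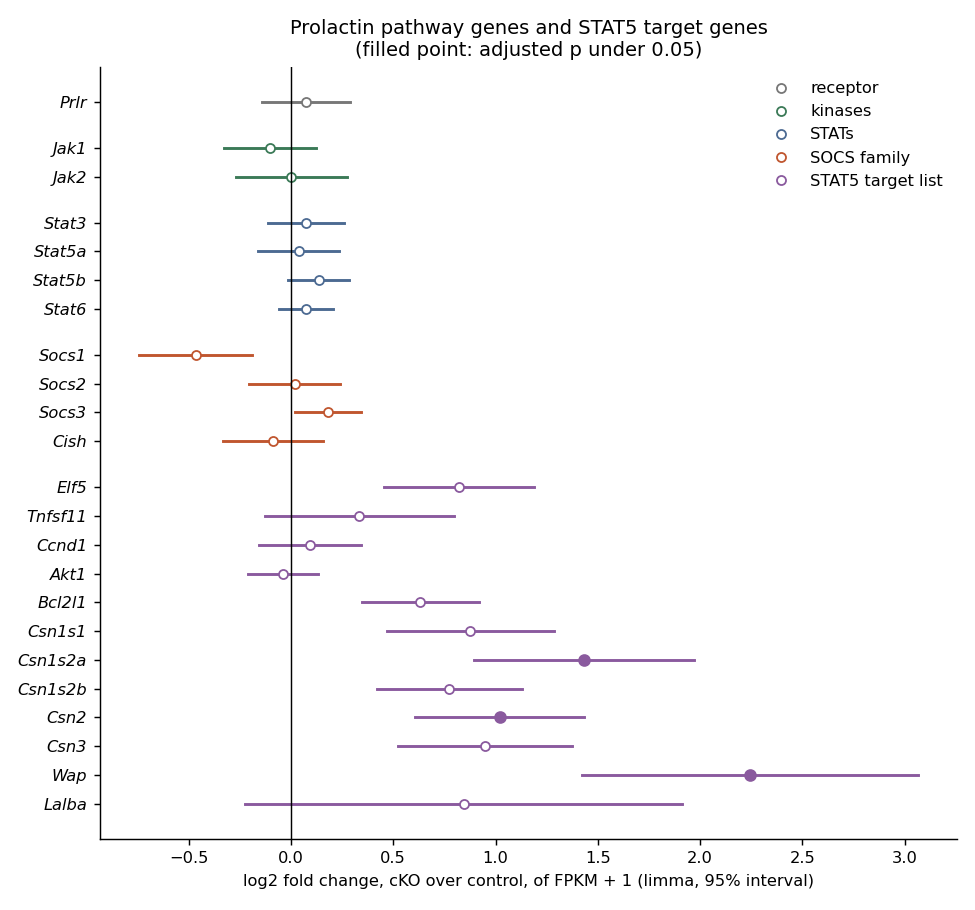
Log2 fold change of FPKM + 1, cKO over control, with its 95% interval from limma (horizontal axis), for the receptor gene, the kinases, the STATs, the SOCS family and 12 STAT5 target genes; filled points have an adjusted p under 0.05. The intervals of Jak2, Stat5a, Socs2 and Cish include 0, and Csn1s2a, Csn2 and Wap are the filled points.

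Of 10 targets of STAT3 tested 1 rose and 1 fell at an adjusted p under 0.05, against 0.588% and 0.304% of all genes, and 6 passed not even the unadjusted threshold. Saa3, an acute phase protein gene, rose from 6.36 ± 0.792 to 11.5 ± 1.65 FPKM (log2 fold change 0.76, limma, adjusted p = 0.0313). Timp1, an inhibitor of matrix proteases, fell from 88.6 ± 11.04 to 55.7 ± 7.09 FPKM (log2 fold change -0.66, adjusted p = 0.0461). As each library was left out, the log2 fold change stayed at 0.69 to 0.85 for Saa3 and at -0.72 to -0.57 for Timp1. The adjusted call of Timp1 was lost in 8 of 8 cases (adjusted p from 0.0583 to 0.124) and that of Saa3 was kept in 1 of 8, without cKO replicate 2 (0.0475 to 0.0893). Both were lost with the replicate block, at adjusted p of 0.0788 and 0.0604. Igfbp5, which binds insulin-like growth factors in the involuting gland, was at 93.7 and 56.9 FPKM (log2 fold change -0.73, adjusted p = 0.0568). It was the third of the 10 to pass by limma-voom (0.0239), and it also passed with the block of replicate sets (0.0419) and when the filter asked for a mean FPKM of 1 (0.0496). All 6 fibroblast markers had a lower mean in cKO, with sums of 441 to 920 FPKM in control and 299 to 713 FPKM in cKO. All 6 adipocyte markers had a higher mean, with sums of 77.6 to 120 and 98.7 to 130 FPKM, and of 3 tested 1, Cidec, passed the adjusted threshold, against 0.588% of all genes in that direction. The part of these cells in the differences of Timp1, Igfbp5, Lif and Il6 was not tested.

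The immediate early genes were examined because digestion of tissue can induce them together with Socs3. Of 10 tested 0 passed either threshold by limma, against 16.4% of all genes at the unadjusted one. By limma-voom 1 passed the unadjusted one, against 17%. By log2 fold change 4 of the 10 were higher and 6 lower in cKO. Their summed level was 895 to 1153 FPKM in control and 781 to 1417 FPKM in cKO. Fos, however, was uneven among the cKO libraries, with 120, 61.7, 52.3 and 127 FPKM against 55.4 to 65.6 FPKM in control. Its high libraries, cKO replicates 1 and 4, were also the highest for Socs3. Egr1 was at 37.3 ± 4.81 and 53.2 ± 24.7 FPKM, and Btg2 at 69.4 ± 8.03 and 88.0 ± 18.7 FPKM (adjusted p = 0.579 and 0.346). By limma-voom with the replicate block the adjusted p of Btg2 was 0.0479. Whether digestion induced these genes, and whether it had a part in the Socs3 difference, was not tested.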

How the data were processed

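RNA-seq of mammary epithelial cells from 4 control and 4 cKO mice was used, with 1 library per mouse. The authors made libraries with a NEBNext Ultra kit, mapped reads with Hisat2 to GRCm38 and deposited FPKM for 55933 genes. The submitters' processing notes also name StringTie 1.3.3b and featureCounts 1.5.0-p3, and name mm9, but 99.68% of the identifiers found in GENCODE vM21 had its GRCm38 coordinates. Other columns hold gene annotation. The deposited FPKM, times gene length, were whole multiples of 1 step per library (tolerance 0.01 read), which gave the reads per gene.

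FPKM are not counts, so log2(FPKM + 1) was tested with limma 3.58.1 in R 4.3.3 (trended empirical Bayes, p adjusted by Benjamini-Hochberg). Tested were 15143 genes, those whose mean FPKM reached 0.5. Fold changes are on this scale, which understates low genes. Single values were compared by exact permutation. The procedure was run on simulated data with independent libraries and no sets of replicates. Such data cannot show how reliable the calls are here.

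The members, lists and tests were chosen with earlier results of these data known. Named are the 10 genes, each gene of the pathway lists with an adjusted p under 0.05, the 3 smallest p per list, and Prlr, Elf5, Tnfsf11 and Bmpr1a. Likeness was Pearson's r of log2(FPKM + 1) over 8 libraries. Alternatives were another pseudocount, other filters, scaling to equal FPKM sums, blocks, limma-voom and leaving out libraries. The replicate numbers come from the sample labels, which do not say that a number marks a shared litter. Some genes that this rule names are not reported here.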

Additional observations from a re-analysis of the deposited data

Results flagged for a closer look

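Among 72 groups of 4 libraries, for 35 named genes and the Stat5b share, 5 held a library set apart from the other three by Dixon's criterion, where chance alone gives about 3.6. Socs3 in control replicate 3 was at 91.4 FPKM, against 84.7 to 85.5 FPKM in the other controls. The Stat5b share in cKO replicate 3 was 46.7%, against 41.4% to 41.8%. Wap in cKO replicate 4 was at 323 FPKM, against 128 to 148 FPKM. Socs5 in cKO replicate 4 was at 18.1 FPKM, against 22.3 to 22.9 FPKM. Il6ra in control replicate 2 was at 4.42 FPKM, against 5.01 to 5.11 FPKM.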

How the results depend on the processing

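Of the 10 genes, Jak1, Stat3, Stat5b, Stat6 and Socs3 kept their direction and their side of the adjusted threshold in all 17 alternatives. Socs1 passed it with a block that set replicates 1 and 2 apart from 3 and 4 (log2 fold change -0.47, adjusted p = 0.0366) and by limma-voom with the replicate block (-0.50, 0.0385), so that 1 of 10 genes passed in each, where 2.92% and 4.49% of all genes passed, against 0 otherwise and 0 to 0 without any 1 library. With an unadjusted p, 3 of 10 passed with no filter (10.3% of all genes), 1 after scaling to equal FPKM sums (16.1%), 1 with control replicates 2 and 4 only (10.2%), and 1 to 2 without any 1 library (13.5% to 16.6%).

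Differences near 0 changed sign. Scaling to equal FPKM sums gave Jak2 -0.059, Stat5a -0.021 and Socs2 -0.038, while the median of all genes moved to -0.05. Leaving out 1 library gave -0.084 to 0.099 for Jak2, -0.013 to 0.11 for Stat5a, -0.060 to 0.071 for Socs2 and -0.15 to 0.021 for Cish, and control replicates 2 and 4 only gave -0.019 for Socs2.

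Of the 58 pathway list genes tested, 6 passed the adjusted threshold (0.892% of all genes). This count was 0 with no filter (0.0319%), 10 with equal FPKM sums (0.871%), 12 with that same block of sets (2.92%), 12 by limma-voom (1.66%), 14 by limma-voom with the replicate block (4.49%), 0 with control replicates 2 and 4 only, and 0 to 4 without any 1 library (0 without each of control replicates 1, 2, 3 and 4 and cKO replicates 3 and 4). Over all genes the calls were 135, and 10 with no filter, 442 with the block of sets, 252 by limma-voom, 680 by limma-voom with the replicate block and 0 to 78 without any 1 library. The cause was not tested.

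Libraries were compared by their deviations, the log2(FPKM + 1) of each gene less its mean in the group. The deviations of same-numbered libraries correlated at 0.08 to 0.14. Of 8 libraries 3 correlated best with their own number, so the numbers were not taken as pairs. Replicates 1 and 2 were then taken as one set and replicates 3 and 4 as another. On the same deviations, the 8 pairs of a control and a cKO library within a set correlated at 0.08 to 0.18. The 8 pairs across these sets correlated at -0.21 to -0.07. Deviations from a group mean cancel within the group, so positive values within sets bring negative ones across them on average. The labels do not say what the sets share, and the model without a block leaves this structure in the residual spread. The replicate block gave 50 adjusted calls over all genes and none among the 10.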

Other observations

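Levels of the STAT5 genes and their feedback genes over the 8 libraries were set beside those of all 15143 genes tested, as a description, since 8 libraries and many genes give high correlations readily. The closest to Stat5a were Tlcd1, Adamts15 and Hexdc, with Pearson's r of 0.930, 0.928 and 0.926. Among the closest to Stat5b were 2610507I01Rik and Gm32219, with r of 0.952 and 0.938. The closest to Socs2 were the imprinted noncoding gene H19, the pseudogene Hmgb1-ps1 and Znhit3, with r of 0.962, 0.949 and 0.949. The closest to Cish were an entry with no gene name, Cul9 and Man2b1, with r of 0.961, 0.952 and 0.941. No gene named here was shared between these lists.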
